A study of Homo sapiens with 42 samples.

Results

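The comparison described here is that of p53 siRNA with a control siRNA in A375 cells that received no active drug. A375 is an established human melanoma cell line. The comparison takes 12 of the 42 arrays of the series: both sets of p53 siRNA with DMSO (6 arrays) and both sets of GL2 siRNA with DMSO (6 arrays). They were chosen by the titles alone, in which an extra ending tells the second set of 3 arrays from the first. GL2 siRNA is directed at firefly luciferase, which human cells lack, and serves as the control for the transfection. In all 4 groups the siRNA was transfected for 48 hours, and 27000 cells were then kept in 0.065% DMSO for 26 hours. Other groups used for comparison were GL2 and p53 siRNA with 5 uM Nutlin (3 arrays each), and CDT1 and BRCA1 siRNA with DMSO (3 arrays each), with the same transfection and exposure times. GL2 and p53 siRNA with 650 nM MLN4924 or 100 nM daunorubicin (3 arrays each) are used for differences without a test. CDT1 and BRCA1 siRNA with 650 nM MLN4924 (3 arrays each) are used for levels of single genes and in fits of all 14 groups. The sequences of the siRNAs, and whether more than 1 was used for a target, are not given in the sources used here. The labels do not say that arrays of a group came from separate cultures, so each p-value here rests on the scatter among these arrays alone and may reflect technical scatter.

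p53 is a transcription factor that binds paired half-sites in DNA as a tetramer and activates genes for cell cycle arrest, cell death, DNA repair and metabolism. In unstressed cells the ubiquitin ligase MDM2, itself a p53 target, keeps p53 low, and Nutlin blocks the binding of MDM2 to p53. Melanomas often keep p53 in working form, so silencing it without a drug asks which transcripts depend on the p53 that is active at rest.

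All levels are log2 signal with the arrays brought to the same median, each gene being read by its brightest probe set. A change is the mean of the differences p53 siRNA less GL2 siRNA within each set, given on the log2 scale with its standard error (SE). Before this step the arrays had medians of 5.99 to 6.16. The 5' to 3' signal ratio of their actin control probes was 0.806 to 0.886 in the first set and 0.9 to 0.945 in the second. On the Nutlin arrays it was 0.697 to 0.821. The second GL2 set stood apart from the other 3 groups for some genes, as described at the end, so calls that the first set alone did not make are named with their lists. A set alone means the difference within that set, with its spread still estimated from all 12 arrays. The melanoma identity was checked with lineage genes. SOX10, a transcription factor of the neural crest and of melanocytes, stood between 9.72 and 10.62 on all 12 arrays. The pigment genes PMEL, MLANA and TYR were low, at no more than 5.28, 4.83 and 5.78. CDKN1A served as the check of the labels.

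CDKN1A, on chromosome 6, encodes the cyclin-dependent kinase inhibitor p21 and is the best known arrest gene under p53. In the first set its level was 9.03, 9.11 and 9.26 with GL2 siRNA and 7.25, 7.59 and 6.96 with p53 siRNA. In the second set it was 9.26, 9.07 and 9.17 with GL2 siRNA and 7.01, 6.50 and 7.06 with p53 siRNA. Every p53 siRNA array lay more than 1.5-fold below every GL2 array, and CDKN1A fell by 2.09 ± 0.13 (SE, 4.26-fold; limma adjusted p = 1.7e-05). MDM2, on chromosome 12, fell less. Its GL2 levels were 9.91, 10.05 and 9.96 in the first set and 10.27, 10.34 and 10.28 in the second set. With p53 siRNA they were 9.47, 9.46 and 9.58, then 9.40, 9.32 and 9.69. The groups did not overlap in either set, and the change was -0.65 ± 0.07 (1.56-fold; adjusted p = 0.00035), of which the first set alone gave -0.46 and was not called. In bulk RNA a lower level in every cell and fewer cells that express the gene cannot be told apart.

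TP73, a relative of p53 on chromosome 1, changed by -0.02 ± 0.12 and was dim on these arrays.

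Over all 19775 genes, 874 (4.42%) were called, that is changed at least 1.5-fold with an adjusted p under 0.05 by limma. Of these 380 (1.92% of all genes) were higher and 494 (2.5%) were lower with p53 siRNA. The median change over all genes was -0.01. Changes were mostly small: 105 genes rose and 147 fell by 2-fold or more, and 4 rose and 19 fell by 4-fold or more. The direction was the same in both sets for 848 of the called genes (97.0%). The arrays of 679 called genes (77.7%) lay apart within both sets, against 2442 (12.3%) of all genes. The calls were made from these same arrays, so both shares are raised by the selection. They are no separate check of the calls. The lower of the mean levels was dim for 308 called genes (35.2%), meaning under the median of all values, a signal of 32.2.

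**Figure D1:**
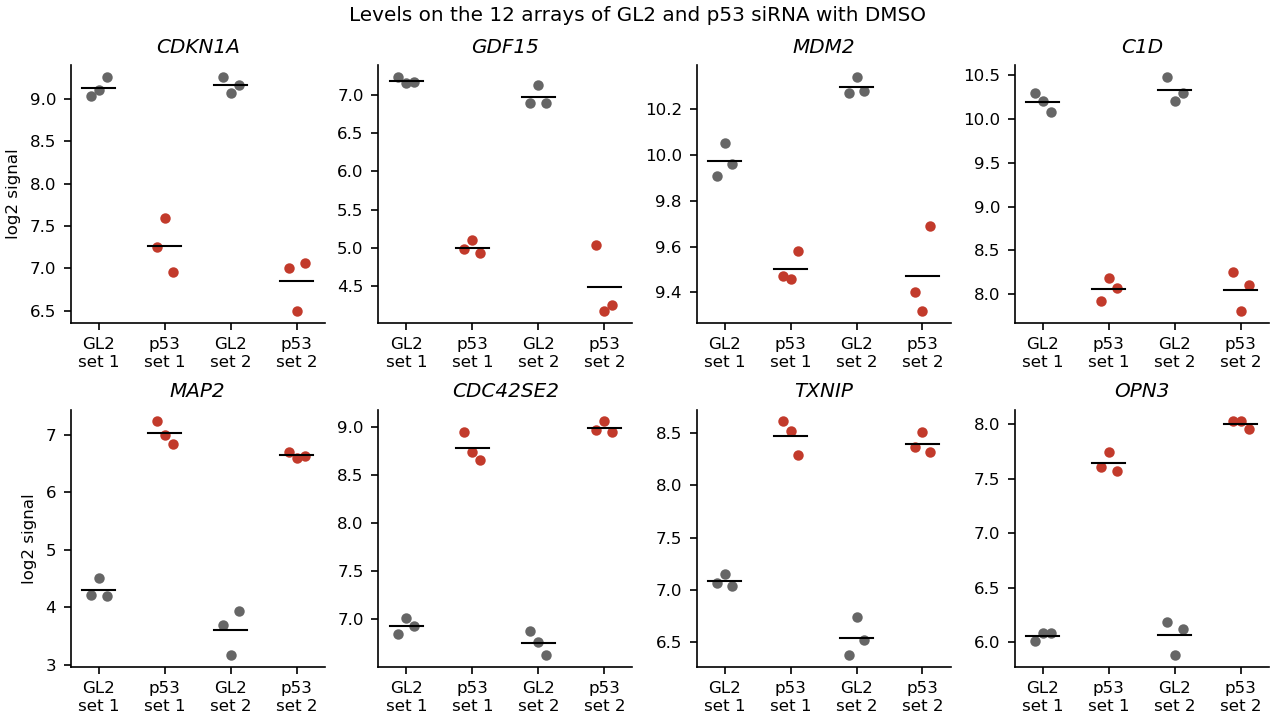
Log2 signal of 8 genes on the 12 arrays; grey points are GL2 siRNA, red points p53 siRNA, 3 arrays a group, and the line is the group mean. In every panel the red points of a set lie wholly on one side of the grey points of that set. All panels but MDM2 show largest called changes, which were taken only from genes without such overlap. CDKN1A falls by 2.09 and MAP2 rises by 2.89 on average, and each panel has its own axis range.

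The largest decreases included secreted proteins, a long noncoding RNA and a regulator of microtubules. ESM1, the secreted proteoglycan endocan, stood at 7.93, 7.93 and 7.69 with GL2 siRNA and 4.70, 5.13 and 4.84 with p53 siRNA in the first set. In the second set it stood at 7.57, 7.40 and 7.31 against 4.65, 4.91 and 4.35. The mean with p53 siRNA was dim, and the change of -2.87 ± 0.11 (7.33-fold; adjusted p = 2.7e-06) was the largest decrease among called genes without overlap within the sets and with 1 group mean above the median of all values. UCA1, a long noncoding RNA on chromosome 19, ran from 10.59 to 10.98 on GL2 arrays and from 8.08 to 8.39 on p53 siRNA arrays. It fell by 2.53 ± 0.07 (5.78-fold). STMN1, which encodes the microtubule-destabilising protein stathmin, ran from 9.83 to 10.09 against 7.18 to 7.69 and fell by 2.49 ± 0.06 (5.61-fold). Both were bright genes whose groups lay far apart.

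GDF15, a stress-induced cytokine of the TGF-beta family and a p53 target, stood at 7.23, 7.15 and 7.16 with GL2 siRNA and 4.98, 5.10 and 4.93 with p53 siRNA in the first set. In the second set the levels were 6.89, 7.12 and 6.89 against 5.04, 4.18 and 4.26. It fell by 2.32 ± 0.14 (5-fold; adjusted p = 1.6e-05) to a dim level. With the mean of all its probe sets GDF15 changed by -0.66 and was not called. C1D, which encodes a cofactor of the nuclear exosome that trims RNA, ran from 10.08 to 10.48 against 7.81 to 8.25 and fell by 2.20 ± 0.09 (4.6-fold). The remaining named decreases were the calcium-binding CALB1 (-2.34 ± 0.54, dim), the metalloproteinase MMP3 (-2.08 ± 0.16, dim), the cytokine IL11 (-2.07 ± 0.10), the hormone STC1 (-1.99 ± 0.10), the dehydrogenase DHRS2 (-1.83 ± 0.08) and the chemokine CCL2 (-1.82 ± 0.44, dim). CALB1 and CCL2 had the widest spread of these, with adjusted p of 0.017 and 0.021, and CALB1 was not called with the replicate number as a block. The call of CCL2 was lost without the second or the third p53 siRNA array of the first set, at -1.64 and -1.73.

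MAP2, a microtubule-associated protein best known from neurons, gave the largest increase by the same rule. In the first set it stood at 4.21, 4.51 and 4.20 with GL2 siRNA, which is dim, and from 6.85 to 7.24 with p53 siRNA. In the second set it stood at 3.70, 3.17 and 3.93 against 6.70, 6.60 and 6.63. The change was 2.89 ± 0.13 (7.39-fold; adjusted p = 4.5e-06). CDC42SE2, a small effector of the GTPase CDC42, ran from 6.63 to 7.02 on GL2 arrays and from 8.66 to 9.06 on p53 siRNA arrays, a rise of 2.04 ± 0.07 (4.11-fold). The 3 other probe sets of CDC42SE2 rose by 1.1, 1.33 and 1.09. OPN3, an opsin expressed outside the eye, rose by 1.77 ± 0.07 (3.4-fold) and its second probe set by 1.61. TXNIP, which binds and inhibits thioredoxin, ran from 6.38 to 7.15 against 8.29 to 8.61 and rose by 1.62 ± 0.08 (3.06-fold). CYP1A1 and CYP1B1, oxidases induced by the aryl hydrocarbon receptor, rose by 1.60 ± 0.11 and 1.52 ± 0.12. The other named increases were ST8SIA4 (1.74 ± 0.12), which builds polysialic acid, the scramblase PLSCR4 (1.37 ± 0.07), the matrix protein MGP (1.35 ± 0.11), the collagen COL8A1 (1.54 ± 0.18), the transcription factor FOXP2 (1.65 ± 0.24) and the water channel AQP11 (2.01 ± 0.40). Of these 6, PLSCR4, COL8A1, FOXP2 and AQP11 had dim means with GL2 siRNA. For the 89 called genes named by rule, of which 38 had other probe sets above the median of all values, 62 of 70 such probe sets had the same sign and 46 of those at least 1.5-fold. Genes not called are not in this count. With the mean of all probe sets 21 of the 89 lost their call or turned, among the increases FOXP2 at 0.41. In the first set alone 40 of the 89 did so, among them CALB1 (-2.27), CCL2 (-2.19), AQP11 (1.53) and COL8A1 (0.88). That difference is of 3 arrays against 3, with the spread estimated from all 12 arrays.

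**Figure D2:**
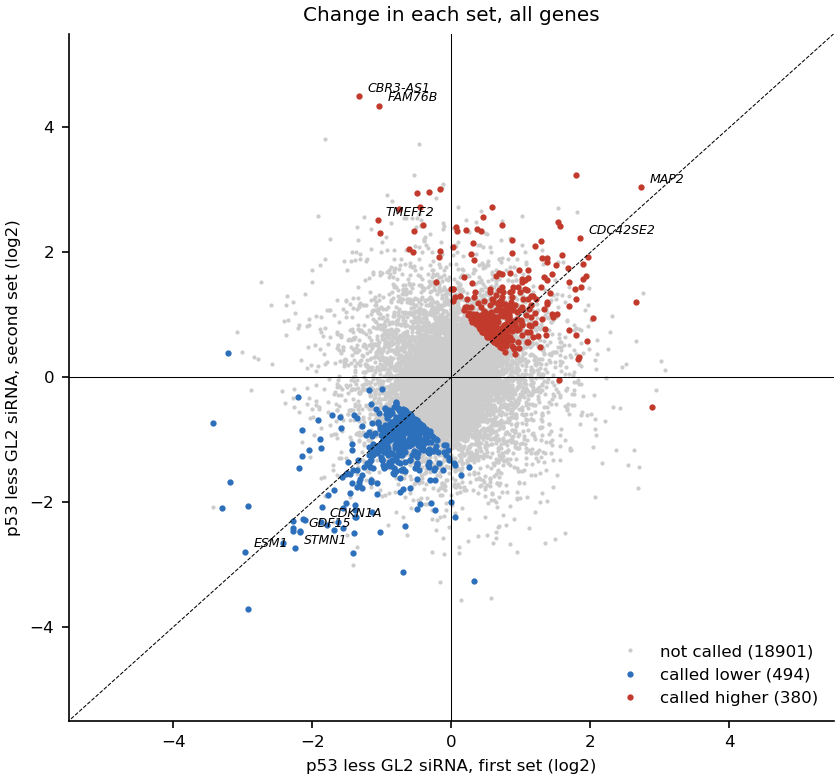
Log2 change with p53 siRNA in the second set (vertical axis) against the first set (horizontal axis), 1 point a gene, 380 called higher in red, 494 called lower in blue and the rest in grey; the dashed line marks equal change. Most called genes lie at the lower left and upper right, while CBR3-AS1, FAM76B and TMEFF2 lie in the upper left, with opposite signs in the sets.

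Of 99 genes chosen as p53 targets 91 were measured, and 17 of them (18.7%) were called lower and 2 (2.2%) higher, against 2.5% and 1.92% of all genes. Their median change was -0.20, and 65 of the 91 lay below 0. The list was chosen with earlier results of these data known, so its shares here and under Nutlin are descriptions only. With the first set alone 10 were called lower and 1 higher, and MDM2, PLK3, RPRM, TNFRSF10A, EDA2R, SESN2, CMBL and TRIM22 were not. With the mean of all probe sets PLK3 (-0.14), CMBL (-0.26) and REV3L (0.43) were not called. By role, 2 of 7 measured genes of feedback on p53 were called lower, 2 of 8 of cell cycle arrest, 4 of 18 of cell death, 1 of 6 of DNA repair and nucleotide supply, 2 of 17 of metabolism, redox and autophagy, and 6 of 35 secreted, membrane and other products.

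Among the feedback genes ZMAT3, a zinc finger protein that binds RNA, ran from 7.75 to 8.19 with GL2 siRNA and from 6.45 to 7.24 with p53 siRNA. It fell by 1.07 ± 0.14 (2.09-fold; adjusted p = 0.0011). The other 5, PPM1D, CCNG1, TP53INP1, PHLDA3 and RCHY1, had changes between -0.35 and -0.13 and were not called. Of the arrest genes PLK3, a polo-like kinase, fell by 0.65 ± 0.11 (1.57-fold), but its call was lost without the first p53 siRNA array of the second set (-0.57). GADD45A and PLK2 had smaller changes of -0.31 ± 0.07 and -0.44 ± 0.06 that did not reach 1.5-fold. RPRM, the arrest gene reprimo, went the other way, by 0.82 ± 0.15 from a dim level.

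Among cell death genes the receptor FAS stood at 8.20, 8.01 and 8.05 with GL2 siRNA and 7.09, 6.71 and 6.89 with p53 siRNA in the first set. In the second set its levels were 7.83, 7.79 and 7.89 against 7.06, 6.87 and 6.97. The groups lay apart in both sets, and FAS fell by 1.03 ± 0.08 (2.04-fold; adjusted p = 4.1e-05). BAX, which opens the outer mitochondrial membrane, ran from 8.92 to 9.32 against 8.14 to 8.51 and fell by 0.81 ± 0.08 (1.75-fold). The TRAIL receptor TNFRSF10A fell by 0.97 ± 0.12, and the dim receptor EDA2R by 1.06 ± 0.26, a call lost without the second GL2 array of the second set (-1.02). The related TRAIL receptor TNFRSF10B changed by 0.15 ± 0.05, and the BH3 protein PMAIP1, known as NOXA, by -0.20 ± 0.06.

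DDB2, which recognises ultraviolet damage in DNA, stood at 8.27, 8.65 and 8.44 with GL2 siRNA and 7.47, 7.14 and 7.34 with p53 siRNA in the first set. The second set gave 8.44, 8.68 and 8.59 against 7.54, 7.58 and 7.77. It fell by 1.04 ± 0.09 (2.05-fold; adjusted p = 0.0001) without overlap in either set. REV3L, the catalytic subunit of a translesion polymerase, rose by 0.86 ± 0.09 (1.81-fold). The repair genes XPC and POLH changed by -0.14 ± 0.10 and -0.31 ± 0.10.

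In metabolism the stress sensor SESN2 fell by 0.93 ± 0.13 (1.9-fold) and the hydrolase CMBL by 0.68 ± 0.08 (1.6-fold). TIGAR and SESN1 had changes of -0.47 ± 0.07 and -0.44 ± 0.08 below the fold limit. Of secreted and membrane products, besides GDF15, the growth factor TGFA fell by 0.82 ± 0.07, the receptor tyrosine kinase EPHA2 by 0.89 ± 0.10 and the cytokine LIF by 0.73 ± 0.08. The actin regulator CYFIP2 fell by 0.94 ± 0.09 and the tripartite motif protein TRIM22 by 1.30 ± 0.25, both to dim levels. For TGFA the ranges were 11.23 to 11.38 against 10.33 to 10.68, and for CYFIP2 they were 5.61 to 6.07 against 4.77 to 5.12, again with no overlap.

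Promoter sequence was read for the genes with at least 1 window of 250 bases before to 50 after a RefSeq start (build GRCh38.p14), 15384 of those tested. The p53 site searched was a pair of adjoining half-sites on either strand with at most 1 mismatch, none of them in the core C and G. It was found for 8 genes (0.052%), for 2 of 373 called lower (0.536%), for 0 of 297 called higher and for 1 of 75 p53 targets. Among all 35116 windows 0.0541% held it. With genes of exactly 1 window it was 1 of 270 called lower and 3 of 11469 in all. The called genes were DDB2 and PURPL, a long noncoding RNA on chromosome 5. Stretches around the match are shown for these and for 2 of the genes that held a site but were not called, PTCHD4 and IGFBP2. The rest of the genes with a site were not called either. They were AHCYL2 (0.03 ± 0.08), ANKUB1 (-0.06 ± 0.31), TTC8 (-0.06 ± 0.08) and EIF2AK3-AS1 (0.84 ± 0.49). PURPL, PTCHD4 and IGFBP2 were chosen after their values were seen. Capitals mark the match, and the sequence is on the strand of the gene.
DDB2, chr11:47214929-47214988, plus strand, 1 mismatch, first base of the match at -5 from the start: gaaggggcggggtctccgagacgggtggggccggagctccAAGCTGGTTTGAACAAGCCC
PURPL, chr5:27472125-27472224, plus strand, 0 mismatches, first base at -127: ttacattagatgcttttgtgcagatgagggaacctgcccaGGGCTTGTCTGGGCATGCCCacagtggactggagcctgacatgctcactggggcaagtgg
PTCHD4, chr6:48111198-48111257, minus strand, 0 mismatches, first base at -20: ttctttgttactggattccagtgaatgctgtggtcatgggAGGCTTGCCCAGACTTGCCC
IGFBP2, chr2:216659485-216659566, plus strand, 1 mismatch, first base at -42: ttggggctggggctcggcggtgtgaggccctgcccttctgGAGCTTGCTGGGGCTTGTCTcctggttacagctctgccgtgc

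PURPL stood at 3.60 to 4.75 with GL2 siRNA and at 2.65 to 3.47 with p53 siRNA, all dim. Its change was -1.05 ± 0.17 (2.07-fold; adjusted p = 0.003). PTCHD4, whose site also has 0 mismatches, changed by -0.15 ± 0.15 (adjusted p = 0.6). IGFBP2, an insulin-like growth factor binding protein, changed by -0.46 ± 0.06, the GL2 arrays of the second set being highest at 9.16 to 9.32. A match in this window is a description of the sequence, and CDKN1A and MDM2 had none in theirs.

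With Nutlin, which frees p53 from MDM2, p53 siRNA lowered most p53 targets. The Nutlin and DMSO comparisons share no array, so their difference was tested. Under Nutlin 3382 genes (17.1%) were called, 1680 higher (8.5%) and 1702 lower (8.61%), and 2989 (15.1%) differed between the conditions. Of the 494 genes called lower at rest 231 (46.8%) were also called lower under Nutlin, which is 13.6% of the Nutlin decreases, and 12 were called higher. Of the 380 called higher at rest 112 (29.5%) were called higher under Nutlin, 6.67% of the Nutlin increases, and 20 were called lower. The sign was shared by 392 of the 494 (79.4%), where 53.5% of all genes were lower under Nutlin, and by 272 of the 380 (71.6%), where 46.5% were higher.

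Of the 91 p53 targets 71 were lower and 1 higher under Nutlin, with a median change of -1.22. GDF15 fell by 5.45 there, CYFIP2 by 4.32, TRIM22 by 4.54, CDKN1A by 3.27, FAS by 3.11 and MDM2 by 2.88. Each of these was lower by 1.18 to 3.38 than the change at rest, a difference that passed the test. PURPL fell by 4.03 under Nutlin. EPHA2, in contrast, changed by -1.15 under Nutlin and -0.89 at rest, and the difference of -0.26 did not pass (adjusted p = 0.38).

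Several targets were called under Nutlin and not at rest, each with a difference that passed the test. TP53I3, a quinone oxidoreductase, stood at 8.73 to 9.11 on the GL2 arrays and 8.75 to 9.13 on the p53 siRNA arrays at rest, with overlap and a change of 0.02 ± 0.08. Under Nutlin it stood at 12.17 ± 0.09 with GL2 and 8.99 ± 0.07 with p53 siRNA (SD, n = 3), a change of -3.17. The difference between the changes was -3.19 (limma adjusted p = 2.6e-10). TP53INP1 changed by -0.35 ± 0.11 at rest and -3.68 ± 0.15 under Nutlin. ANXA4, TP53TG1 and SAT1 changed by -0.00, 0.04 and -0.04 at rest and by -2.17, -1.88 and -1.78 under Nutlin. Another 4 were higher at rest by less than the fold limit: FUCA1, a lysosomal fucosidase, by 0.56 ± 0.07, ANKRA2 by 0.52 ± 0.10, the proteoglycan VCAN by 0.50 ± 0.07 and the KIT ligand KITLG by 0.35 ± 0.09. Under Nutlin the same 4 fell by 1.18, 2.12, 2.43 and 1.37. For FUCA1 the GL2 arrays at rest ran from 7.83 to 8.11 and the p53 siRNA arrays from 8.39 to 8.64.

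**Figure D3:**
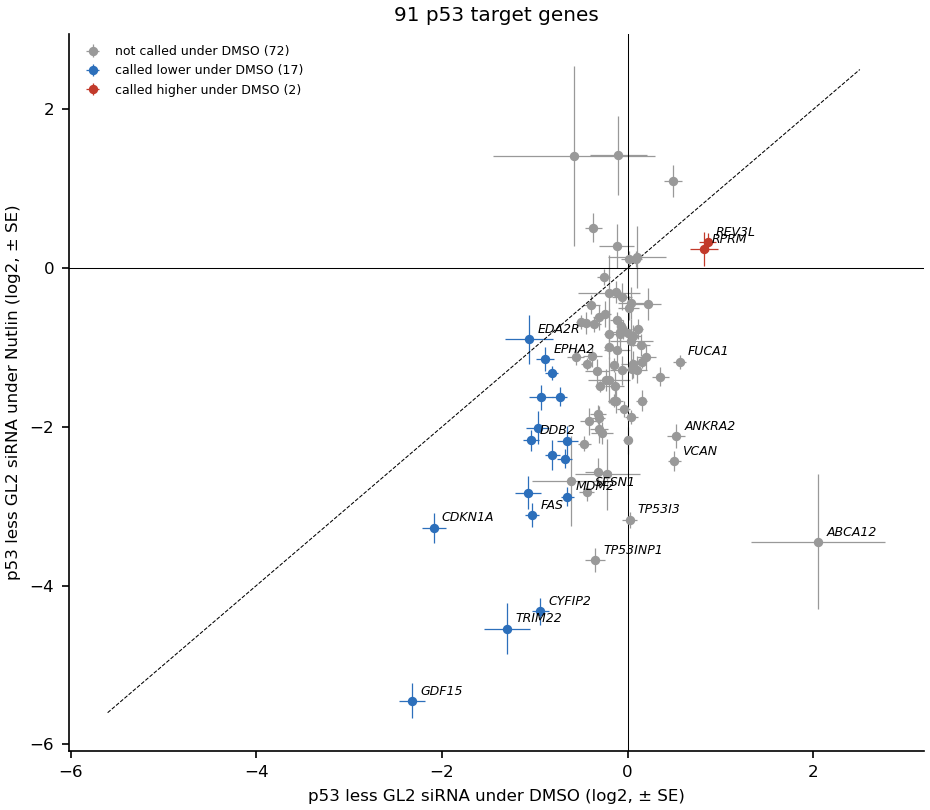
Log2 change with p53 siRNA under Nutlin (vertical) against that under DMSO (horizontal) for 91 p53 target genes, with SE bars; blue are called lower under DMSO (17), red called higher (2) and grey not called (72), and the dashed line marks equal change. Most points lie below the dashed line, with 71 genes called lower under Nutlin, and many, such as TP53I3, lie near 0 on the horizontal axis.

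The sign at rest was compared also with the other drugs, MLN4924, which inhibits the NEDD8-activating enzyme, and the DNA-damaging daunorubicin, whose arrays are again separate. Under MLN4924 79.6% of the 494 genes were lower with p53 siRNA, where 40.2% of all genes were, and 75.3% of the 380 were higher, where 59.8% of all were. Under daunorubicin the shares were 76.9% against 51.4% and 62.4% against 48.6%, the latter 56.6% against 44.8% without the p53 siRNA array whose actin 5' to 3' ratio was 0.0118. These shares are descriptions with no test.

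For some of the largest changes at rest the difference from Nutlin did not pass the test. C1D fell by 2.20 ± 0.09 under DMSO and by 2.16 ± 0.15 under Nutlin, a difference of 0.04 ± 0.18 (adjusted p = 0.91). Its means with p53 siRNA were lower than with GL2 siRNA by 2.15 under MLN4924 and by 1.86 under daunorubicin, or 2.06 without the array just named. CDC42SE2 rose by 2.04 ± 0.07 under DMSO and by 2.09 ± 0.11 under Nutlin, a difference of 0.05 ± 0.13 (adjusted p = 0.86). Under MLN4924 and daunorubicin its differences were 1.93 and 2.32. They were 2.30 and 1.98 without that array and 1 GL2 MLN4924 array doubted in an earlier analysis. IL11 and MAP2 likewise had differences from Nutlin that did not pass, of 0.20 (adjusted p = 0.59) and 0.73 (adjusted p = 0.097). ESM1 fell less under Nutlin, by 2.14, and the difference of 0.74 passed (adjusted p = 0.019).

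Other genes turned direction. STMN1 fell by 2.49 at rest and was higher by 1.46 with p53 siRNA under Nutlin, where its GL2 mean was 6.01 and its p53 siRNA mean 7.47. CDC25A, the phosphatase that activates cyclin-dependent kinases, ran from 8.93 to 9.11 with GL2 siRNA at rest and from 7.58 to 8.35 with p53 siRNA. It fell by 1.14 ± 0.07 (2.2-fold), yet rose by 3.16 under Nutlin. CYP1B1 rose by 1.52 at rest and changed by -0.62 under Nutlin. The cadherin CDH10 and the Golgi kinase homologue GASK1B rose by 0.90 ± 0.16 and 0.76 ± 0.14 at rest and fell by 2.98 and 3.28 under Nutlin.

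Cell cycle genes were called at rest about as often as all genes, of which 1.92% were higher and 2.5% lower. Of 40 mitosis genes 1 (2.5%) was called, KIF20A, a kinesin of cytokinesis, which rose by 0.69 ± 0.07 (1.62-fold) from a range of 8.88 to 9.11 to one of 9.54 to 9.91. The median over the list was 0.13. Cyclin B1 (CCNB1) stood between 11.39 and 11.59 on the GL2 arrays and between 11.41 and 11.56 on the p53 siRNA arrays, and changed by -0.02 ± 0.05. The proliferation marker MKI67 changed by 0.12 ± 0.09. Under Nutlin, where 8.5% of all genes were called higher, 39 of the 40 were higher with p53 siRNA. The median over the mitosis list there was 4.72, and CCNB1 was higher by 4.19. Of 44 replication and E2F target genes CDC25A was called lower and RFC5, a subunit of the clamp loader, higher by 0.72 ± 0.08, and the median was 0.01. The other 2 probe sets of RFC5 gave -1.08 and -0.5, so its direction depends on the probe set, and the first set alone gave 0.02. Under Nutlin 42 of these 44 were higher, with a median of 2.76. No member of the 21 homologous recombination and Fanconi genes was called at rest, and 17 were higher under Nutlin. Of 10 replication-type histones H1-2 (0.93 ± 0.11) and H2AC8 (1.24 ± 0.27, dim) rose and H2BC4 (-0.70 ± 0.17, dim) fell. The call of H2BC4 was lost without any one of 7 of the 12 arrays, with values from -0.69 to -0.62, and in the first set alone (-0.19).

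The sequence TTTGAA or TTCGAA, known as the CHR element of mitotic promoters, lay on either strand in the windows of 25 of 33 mitosis genes (75.8%), of 13.7% of genes called lower, of 21.5% of genes called higher and of 17.2% of all genes, and in 16.4% of all windows. The E2F sequence (TTTCGCGC, TTTGGCGC or TTTCCCGC) lay in 5.09% of genes called lower, 5.72% of those called higher and 4.45% of all, and in 2.74% of all windows.

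Genes of growth signalling had medians below that of all genes. Their calls stand beside 2.5% of all genes called lower and 1.92% called higher. Of 17 genes of MAPK output, the transcripts driven by the kinase cascade that BRAF feeds, 3 were called lower and 0 higher, 16 lay below 0 and the median was -0.32. In the first set alone 2 were called lower, 13 lay below 0 and the median was -0.16, and in the second set alone 6 were called lower with a median of -0.46. CCND1, the cyclin of early G1, stood at 10.41, 10.37 and 10.59 with GL2 siRNA and 9.86, 9.73 and 9.70 with p53 siRNA in the first set. In the second set it stood at 11.01, 11.06 and 10.96 against 9.36, 9.62 and 9.56. The gap was wider in the second set, and CCND1 fell by 1.09 ± 0.07 (2.13-fold; adjusted p = 1.7e-05). The growth regulator MYC fell by 0.93 ± 0.09 and the transcription factor ETV1 by 0.85 ± 0.09, the last not called in the first set alone (-0.53). Other bright probe sets of ETV1 changed by only -0.3, -0.13, -0.27 and -0.25, so the size of its fall depends on the probe set. SPRY2, an inhibitor of the pathway, had a change of -0.57 ± 0.06, just under the fold limit. Of 18 immediate early genes, which respond to growth factors within minutes, 3 were called lower and the median was -0.38 (-0.26 in the first set alone, -0.47 in the second). They were CCN1 (-0.80 ± 0.08), CCN2 (-1.20 ± 0.09) and the dim FOSB (-1.08 ± 0.25), which changed by 0.06 in the first set. Of 18 ribosome biogenesis genes RRS1 (-0.93 ± 0.15) and RRP9 (-0.64 ± 0.09) fell, 17 lay below 0 and the median was -0.22. The first set alone called neither, at -0.72 and -0.55, with a median of -0.27.

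Matrix and contact genes had calls in both directions, beside 2.5% of all genes called lower and 1.92% called higher. CCN2, a matricellular protein, ran from 9.74 to 10.36 with GL2 siRNA and from 8.56 to 9.15 with p53 siRNA. Of 22 TGF-beta and YAP target genes 6 (27.3%) were lower and 3 (13.6%) higher. Besides CCN1 and CCN2 the decreases were CRIM1 (-0.94 ± 0.07), PMEPA1 (-0.90 ± 0.16) and the dim ANKRD1 (-1.04 ± 0.10) and LTBP2 (-0.65 ± 0.16). The increases were the ligand TGFB2 (1.21 ± 0.11), the kinase LATS2 (0.78 ± 0.07), which restrains YAP, and the dim SNAI2 (0.66 ± 0.18), at 0.20 in the first set. Another bright probe set of LATS2 gave 0.45, and dim ones 0.05 and -0.56. PMEPA1 (-0.93), LTBP2 (-0.65) and SNAI2 were not called in the first set alone. Of 33 matrix and adhesion genes 6 (18.2%) fell and 1 (3.03%) rose, the latter near the share of all genes. COL6A3, a collagen VI chain, ran from 6.91 to 7.13 against 5.17 to 5.99 and fell by 1.41 ± 0.06 (2.65-fold). The collagen receptor subunit ITGA2 ran from 8.70 to 9.58 against 7.67 to 7.94 and fell by 1.25 ± 0.08 (2.37-fold). COL5A1, ITGA3, COL4A1 and ITGA1 fell by 0.87, 0.73, 0.68 and 0.64, whereas fibronectin (FN1) rose by 0.93 ± 0.12. In the first set alone 3 of the list were lower and 1 higher, in the second set alone 10 and 1, and COL5A1 (-0.76), ITGA3 (-0.32) and ITGA1 (-0.38) were not called in the first.

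Inflammatory and stress lists gave between 0 and 3 calls in a direction, beside 2.5% of all genes lower and 1.92% higher. Of 23 NF-kB targets 3 were lower: CXCL8 (-0.92 ± 0.11), the subunit NFKB2 (-0.77 ± 0.08) and CCL2. Of 28 interferon-stimulated genes the immunoproteasome subunit PSMB9 (0.80 ± 0.08) and IFI35 (0.63 ± 0.06) rose, IFI35 by 0.40 and not called in the first set alone. Of 28 ATF4 and unfolded protein response genes 3 (10.7%) were lower: SESN2, CHAC1 (-1.18 ± 0.17, dim) and PPP1R15A (-0.60 ± 0.07). The first set alone called none of the list, with -0.49 for SESN2, -0.24 for CHAC1 and -0.35 for PPP1R15A. PPP1R15A lost its call without the third p53 siRNA array of the first set (-0.58) or the second GL2 array of the second set (-0.57). Hypoxia targets had 1 decrease in 23, the enolase ENO2 (-0.71 ± 0.12; -0.51 and not called in the first set alone), and a median of -0.21, with 2 decreases when any one of 5 arrays was left out. Sterol and fatty acid synthesis had 1 decrease in 20, FASN (-0.66 ± 0.09), which changed by -0.08 in the first set alone. Of 23 NRF2 targets ABCC3 was called higher (0.71 ± 0.19), with its 4 other bright probe sets at 0.17, -0.19, -0.23 and -0.55 and the call lost without any one of 7 arrays (0.58 to 0.73) and in the first set alone (0.75). In the BCL2 family BAX and BOK (-0.59 ± 0.09) were called in 15, the latter lost without any one of 5 arrays (-0.57 to -0.54) and in the first set alone (-0.31). None of 11 genes of the RNA interference machinery was called, and 1 was without the third p53 siRNA array of the second set.

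**Figure D4:**
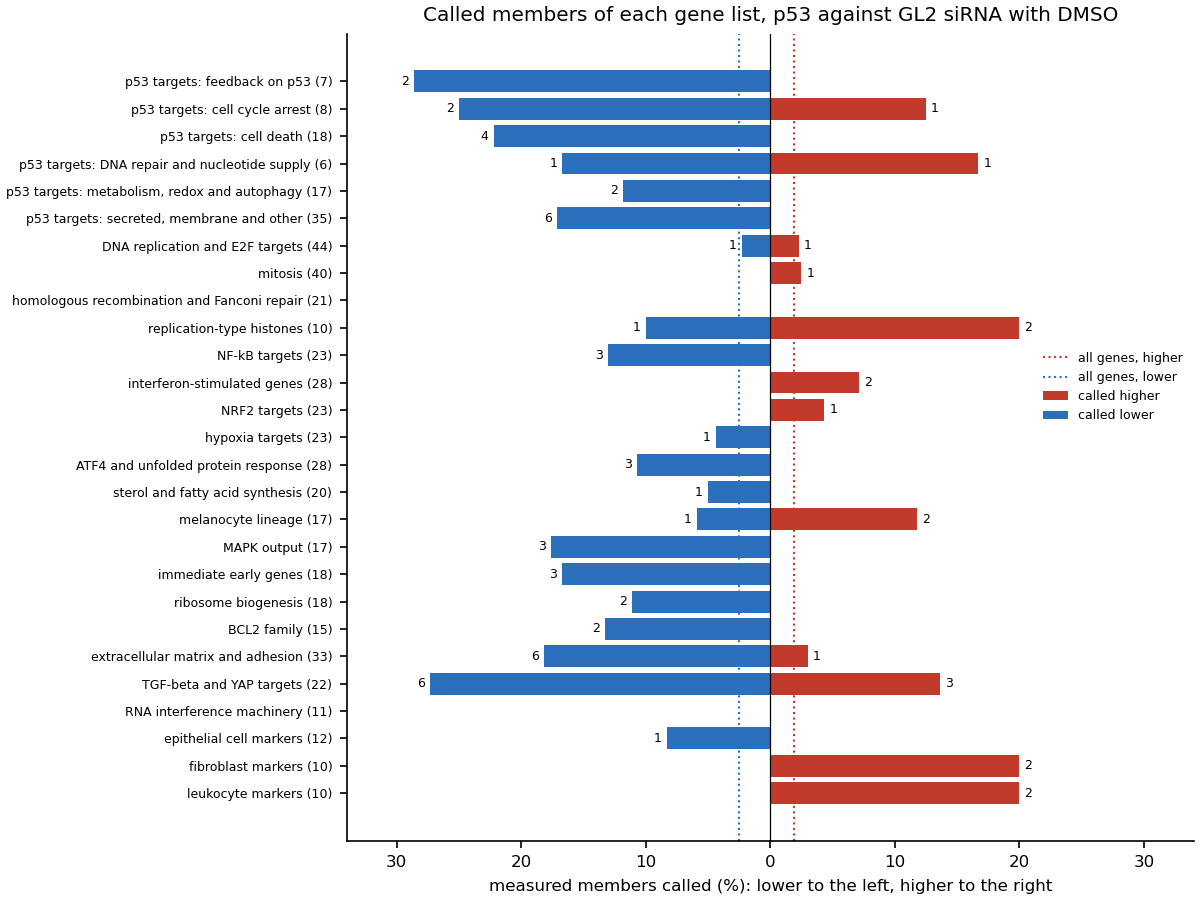
Percent of the measured members of each gene list called lower (blue, to the left) and higher (red, to the right), with the number called beside each bar and the number measured in brackets; dotted lines give the shares of all genes, 2.5% lower and 1.92% higher. The longest bars to the left belong to the feedback genes of p53 (28.6%) and the TGF-beta and YAP targets (27.3%), and mitosis genes have 1 call in 40.

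Lineage and cell type markers were measured beside these, in short lists. Of all genes 2.5% were called lower and 1.92% higher. Of 17 melanocyte genes S100B (0.63 ± 0.09) and the dim TYRP1 (0.91 ± 0.26) were higher and the lineage factor MITF (-0.86 ± 0.16) lower. MITF ran from 8.34 to 8.90 against 7.33 to 8.26. Another bright probe set of MITF changed by -0.39 and a dim one by -0.84. The first set alone called none of the list, with 0.49 for S100B, 0.30 for TYRP1 and -0.77 for MITF. The summed signal of the list went from 3132 to 3903 with GL2 and 3804 to 4101 with p53 siRNA in the first set, and from 3873 to 3994 and 4376 to 4896 in the second set. S100B lost its call without the second GL2 array (0.58) or the third p53 siRNA array (0.57) of the second set. Of 10 leukocyte markers HLA-DRA (0.65 ± 0.07) and the dim CD8A were called higher. The summed signal was 1919 to 2148 and 2670 to 2869 in the first set, 2273 to 2449 and 3718 to 4247 in the second set, while PTPRC, the defining marker CD45, was at no more than 3.46 on all 12 arrays. CD8A lost its call without any one of 10 arrays (0.73 to 1.0) and changed by -0.16 in the first set, where HLA-DRA changed by 0.51 and was not called. Of 10 fibroblast markers the dim POSTN (1.19 ± 0.12) and LUM (0.60 ± 0.13) were higher, and LUM lost its call without any one of 4 arrays (0.49 to 0.56) and in the first set alone (0.45). The fibroblast sums were 509 to 604 and 568 to 703 in the first set, 465 to 576 and 678 to 744 in the second set. Of 12 epithelial markers the keratin KRT8 was lower (-0.69 ± 0.09; -0.54 and not called in the first set alone), with sums of 2979 to 3486 and 2734 to 3038, then 2702 to 2827 and 2180 to 2405, and EPCAM was at no more than 4.56. The part of these markers in the other results was not tested.

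CDT1 and BRCA1 siRNA gave another comparison, in which the p53 siRNA arrays are the same and the GL2 arrays add only to the estimate of the spread. It set the mean of both p53 siRNA sets against the mean of these groups, not within set. As these siRNAs are directed at human genes, a difference can come from either side. Of all genes 1645 (8.32%) were called against these groups, 819 higher (4.14%) and 826 lower (4.18%). CDKN1A stood at 10.56 with CDT1 and 11.01 with BRCA1 siRNA (means, n = 3), above the GL2 arrays, and differed by -3.73 against them, where the change against GL2 siRNA was -2.09. GDF15 differed by -3.32, UCA1 by -2.68, C1D by -2.25, STMN1 by -1.86 and MDM2 by -0.92. For ESM1 the CDT1 and BRCA1 means were 5.93 and 5.95, between the p53 siRNA and the GL2 levels, and the difference was -1.18. CDC42SE2 was also in between, at 7.85 and 8.20, with a difference of 0.86. OPN3 and TXNIP differed by 1.73 and 1.28. Some decreases against GL2 siRNA had no counterpart: CCN2 differed by 0.20 (adjusted p = 0.071), CCN1 by 0.06 (adjusted p = 0.62) and CHAC1 by 0.63. Of 40 mitosis genes 28 were higher with p53 siRNA than with these siRNAs, with a median of 0.72. As both comparisons use the same p53 siRNA arrays, their values are given side by side only.

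The sets themselves differed for some genes. The first set alone gave 467 called genes and the second set 1378. The change differed between the sets for 39 genes (0.197%), of which 17 were among the called, and 2179 had an unadjusted p under 0.05. In 20 of the 39 the second GL2 set was the group farthest from the rest on the low side, and in 11 on the high side. FAM76B stood at 10.85, 10.82 and 10.66 in the first GL2 set and at 7.20, 5.58 and 6.03 in the second, with 9.52 to 10.00 and 10.35 to 10.86 with p53 siRNA. Its called rise of 1.66 ± 0.25 therefore joined -1.04 in the first set with a larger rise in the second, and its 3 other probe sets changed by 0.01, -0.18 and 0.12. CBR3-AS1 and TMEFF2 were likewise called higher with opposite signs in the sets, at -1.32 and -1.06 in the first set alone. FAM76B was low also on the GL2 Nutlin arrays (6.79 to 8.45) and on 1 of 3 p53 siRNA Nutlin arrays, at 6.85 against 10.52 and 10.76. The daunorubicin arrays stood in between, at 8.70 to 9.70 with GL2 and 8.15 to 9.64 with p53 siRNA, below the MLN4924, CDT1 and BRCA1 groups, which were all at 10.10 or more. What the arrays with low FAM76B share was not tested. Without that p53 siRNA Nutlin array 3047 genes differed between Nutlin and DMSO, where 2989 did with it. Of these 2588 were called both ways, so which genes are called depends in part on that array.

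**Figure D5:**
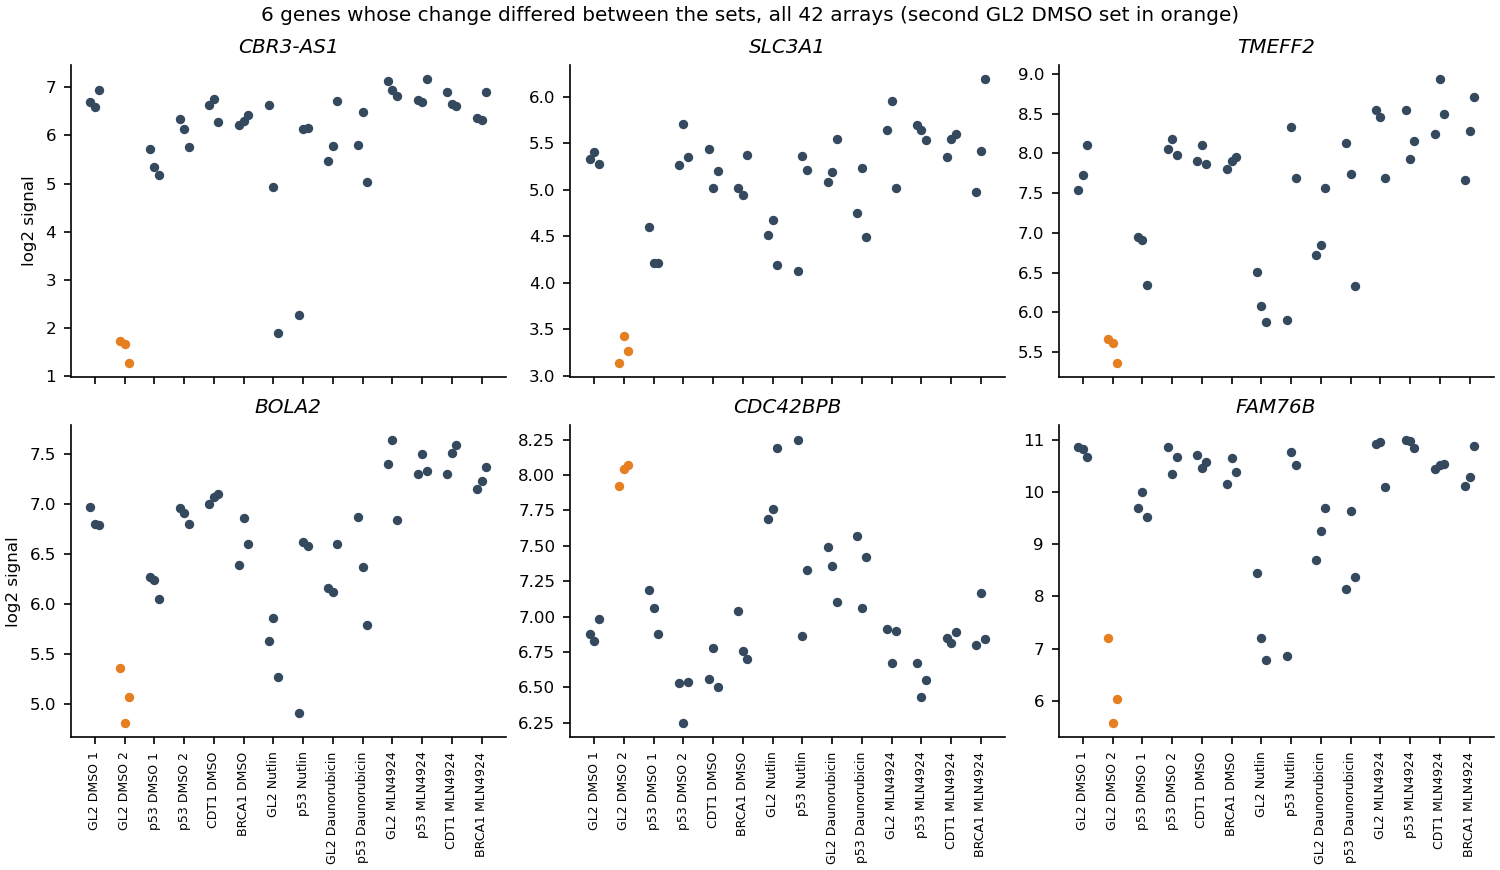
Log2 signal on all 42 arrays, by group on the horizontal axis, of the 6 genes named for a change that differed between the sets; each point is 1 array and orange marks the second GL2 set with DMSO. That set is lowest for CBR3-AS1, SLC3A1, TMEFF2, BOLA2 and FAM76B among the DMSO groups, and highest for CDC42BPB; each panel has its own axis range.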

How the data were processed

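The authors deposited 1 table of signal intensity on a linear scale for 54675 probe sets on 42 Affymetrix arrays. Per the submitters' processing notes the tool was Affymetrix Expression Console, with no version named. The 2% trimmed mean was 150.02 on every array. Here the 147 values of 0 were raised to 0.1, the deposited intensity was turned into log2, each of 19775 genes was read by the probe set with the highest mean, and the median gene of an array was set to 0; printed levels add back the mean of the 12 medians, 6.07. The table holds no scan dates or detection calls, so neither was used. The number of arrays limits the precision.

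limma 3.58.1 in R 4.3.3 fitted 4 group means, 2-sided, with Benjamini-Hochberg adjustment over all genes; calls need an adjusted p under 0.05 and 1.5-fold. It was tried on simulated data with known changes, independent noise and no difference between the sets. Such data leave out the departure of the second GL2 set described above. The level of the siRNA target is not reported here. Named genes were CDKN1A, MDM2 and relatives of p53, the 12 largest called increases and decreases with a level above the median and no overlap within sets, all called p53 targets, up to 4 members of each other list, 6 genes of the set difference and 6 in each direction of the Nutlin difference; other list members, and the genes with a p53 site, were named after their values were seen. Replicate numbers were not taken as pairs, and the labels name no shared culture or day. Deviations from the group means correlated between same-numbered GL2 and p53 siRNA arrays by 0.10 to 0.20 in the second set. In the first set these correlations were -0.03 to 0.09. The members and lists were chosen with earlier results of these data known. The alternatives were other scalings, probe set rules, filters, fits, thresholds, each set alone and each array left out.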

Additional observations from a re-analysis of the deposited data

Results flagged for a closer look

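The change with p53 siRNA differed between the first and the second set, by a test of the difference, for 6 genes named by rule (second set less first set, log2). The differences were 5.82 for CBR3-AS1, 5.39 for FAM76B, 3.58 for TMEFF2, 3.17 for SLC3A1, 2.48 for BOLA2 and -1.71 for CDC42BPB. In all 6 the second GL2 set was the group farthest from the other 3. Other bright probe sets of 4 of these genes gave set differences of 0.62 for CBR3-AS1, -0.35 for TMEFF2, 0.0 for BOLA2 and -0.15, 0.14 and -0.07 for FAM76B.

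The change under Nutlin differed from that under DMSO, again by a test of the difference, for 12 called genes named by rule. The Nutlin change was lower by 4.04 for GASK1B, with differences of -4.04 for it, -3.88 for CDH10, -3.38 for CYFIP2, -2.92 for PLTP, -2.24 for MDM2 and -1.99 for ACTA2. It was higher by 5.16 for NMU, 4.52 for PALM3, 4.29 for CDC25A, 4.28 for KIF20A, 3.95 for STMN1 and 2.76 for GAS1. At rest NMU, a secreted neuropeptide, rose by 1.03 ± 0.06, the growth arrest gene GAS1 by 0.88 ± 0.10, and ACTA2, smooth muscle actin, fell by 1.51 ± 0.07. The lipid transfer protein PLTP had a change of -0.87 ± 0.08 and PALM3 of -0.71 ± 0.16.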

How the results depend on the processing

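The count of genes called at rest, 874, was 551 with a pseudocount of 16, 467 in the first set alone, 1378 in the second set alone, 3170 with the adjusted p alone and 252 at 2-fold. With single arrays left out it ran from 813 to 901. The 39 genes of the set difference became 85 under the deposited scaling, 59 under quantile normalization, 70 with the mean of all probe sets, 108 with a pseudocount of 16, 183 without dim genes, 127 with all 14 groups without 3 doubted libraries, 196 with trend and robust fitting and 86 with array weights. With single arrays left out it ran from 23 to 52. The 2989 genes of the Nutlin difference became 1399 at 2-fold and ran from 2764 to 3047 with arrays left out. The 1645 against CDT1 and BRCA1 siRNA became 5108 with the adjusted p alone and 496 at 2-fold, and ran from 1577 to 1655.

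The deviations of arrays from their group means, over 9843 brighter genes, were correlated between GL2 and p53 siRNA arrays of a set. For same-numbered arrays these correlations were -0.03, 0.09 and -0.01 in the first set. In the second set they were 0.20, 0.15 and 0.10, and each array correlated best with its own number. With the replicate block 769 genes were called at rest, 15 in the set difference, 2732 in the Nutlin difference and 1624 against CDT1 and BRCA1 siRNA. Under the block 5 named genes lost their call: CALB1, H2BC4, CD8A, TMEFF2 and PALM3.

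The mean of all probe sets reversed RFC5 (-0.29) and ABCC3 (-0.02). The first set alone reversed CD8A (-0.16), CBR3-AS1 (-1.32), TMEFF2 (-1.06), CDC42BPB (0.14) and FAM76B (-1.04). For the 89 called named genes 1038 of 1154 values under 13 alternatives kept direction and call, 109 lost the call and 7 reversed, and 1027 of 1068 kept both with arrays left out. Of the counts of list members 614 stayed within 1.5 times and 86 did not. The cause was not tested. Deposited scaling moved the median change to 0.04 and the share of called genes that were higher from 43.5% to 52.6%.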
